A study of Caenorhabditis elegans with 2 samples.

Results

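The DREAM complex genes of Caenorhabditis elegans are the 8 genes lin-54, lin-53, lin-9, lin-35, lin-37, lin-52, efl-1 and dpl-1, of 19973 nuclear protein-coding genes in the WBcel235 annotation. They were followed in peak lists from chromatin immunoprecipitation and sequencing (ChIP-seq) of Y53G8AR.9, a gene annotated as encoding a protein with a C3H1-type (CCCH zinc finger) domain. The genes were chosen by name, with their peaks in these data already known, so the peak values below chose the set and are given as a description with no test. A peak was placed at a gene when its summit lay between 500 bp before and 500 bp past the gene. The animals were whole young adults 64 hours old of strain RW12264, which carries the insertion st12264[Y53G8AR.9::TY1::EGFP::3xFLAG] on chromosome III, made with CRISPR. Cultures had been synchronised by bleaching followed by starvation of the L1 larvae. The immunoprecipitation used an antibody against GFP, so it reports where the tagged protein, in any tissue of the animal, was found. There was 1 group with 2 biological replicates, and no untagged animals or other conditions were analysed here.

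DREAM is a repressor complex built on a retinoblastoma-like pocket protein, an E2F and DP transcription factor pair and a core of MuvB proteins. In C. elegans the pocket protein is LIN-35, the E2F and DP proteins are EFL-1 and DPL-1, and the core consists of LIN-9, LIN-37, LIN-52, LIN-53 and LIN-54. The worm complex is known for repressing cell cycle and germ-line genes in somatic cells, and several of its genes were found as synthetic multivulva (synMuv) class B genes, which act with a second class to restrain vulval development. LIN-54 binds the CHR element, a TTTGAA or TTCGAA sequence, and E2F proteins bind GC-rich sites. These proteins were not assayed here. The measurements concern the tagged protein on the DNA of the genes that encode them.

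The sequences under the strongest summits of lin-54, lin-9, lin-52 and efl-1 are shown because they are where the tagged protein gave its main signal at these genes. The sequences of lin-53 and lin-35, which also had conservative peaks, are not shown here, but both genes are counted in the motif results. A stretch from lin-37 is shown beside them because its region did not reach the threshold of the peak lists. Each line runs 5′ to 3′ on the strand of the gene and spans up to 100 bases to each side of the summit. The lin-54 line is cut at the start of rpl-12 and the lin-52 line at its initiation codon. All bases upstream of these points are left out, for lin-52 intergenic ones too. Capitals mark matches on either strand to TTTGAA and TTCGAA (CHR), GCGGGA and GCGCGA (cores of E2F sites), the repeat GAGAGA, the TATA-like TATAAA, or the 9 bases GCGCTCCAC described below. No match shown overlaps another. Coordinates are WBcel235 and the bases are from the RefSeq copy of that assembly.
lin-54, IV:13240652-13240782, plus strand, summit at base 31: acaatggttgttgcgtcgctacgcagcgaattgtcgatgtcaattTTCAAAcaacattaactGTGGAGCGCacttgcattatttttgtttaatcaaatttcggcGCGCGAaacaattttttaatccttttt
lin-9, III:8904187-8904387, minus strand, summit at base 101: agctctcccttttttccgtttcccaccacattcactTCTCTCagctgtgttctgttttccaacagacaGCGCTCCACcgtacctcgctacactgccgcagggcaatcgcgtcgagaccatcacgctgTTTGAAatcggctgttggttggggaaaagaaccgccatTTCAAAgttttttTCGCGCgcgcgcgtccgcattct
lin-52, III:9824613-9824743, minus strand, summit at base 31: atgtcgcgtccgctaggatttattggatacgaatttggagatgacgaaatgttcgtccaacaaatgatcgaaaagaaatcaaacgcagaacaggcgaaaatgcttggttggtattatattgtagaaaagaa
efl-1, V:16965760-16965960, minus strand, summit at base 101: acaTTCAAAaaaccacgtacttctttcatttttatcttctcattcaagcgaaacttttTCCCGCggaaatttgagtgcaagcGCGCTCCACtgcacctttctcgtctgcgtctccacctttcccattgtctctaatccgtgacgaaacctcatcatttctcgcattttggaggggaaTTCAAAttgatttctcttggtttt
lin-37, III:7072296-7072496, minus strand, summit at base 101: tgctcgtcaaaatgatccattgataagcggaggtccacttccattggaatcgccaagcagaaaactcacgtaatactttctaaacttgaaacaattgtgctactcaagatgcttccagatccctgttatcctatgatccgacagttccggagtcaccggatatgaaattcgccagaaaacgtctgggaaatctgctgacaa

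The lin-54, lin-9 and efl-1 stretches lie wholly upstream of their genes, the lin-54 one from 392 to 262 bp before the start. The lin-52 stretch begins 7 bp past the start of lin-52, at its initiation codon, and the lin-37 stretch lies 56 to 256 bp past the start of lin-37. With 100 bp to each side of the summit, lin-54, lin-9 and efl-1 each held both a CHR match and an E2F core match. At lin-53 and lin-35 the same window held TTTGAA and no E2F core. In windows of that width TTTGAA was present at 34.3% of all conservative peaks, GCGCGA at 8.97% and GCGGGA at 8.21%. These are shares of single motifs. The share of all conservative windows with both kinds of match was not counted, so nothing is read from the members that held both. With 50 bp to each side, no member held both kinds of match. In lin-54 a TTCAAA, the reverse complement of TTTGAA, began 15 bp past the summit, and GCGCGA began 74 bp past it. In lin-9 TTTGAA began 27 bp past the summit, and a second match with TTCAAA was followed 7 bases later by TCGCGC, the reverse complement of the E2F core. In efl-1 the TCCCGC ended 37 bp before the summit. The lin-52 and lin-37 stretches held no match.

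In the 101 bp centred on each strongest conservative summit, TTTGAA was present at 4 of the 6 members that had such a peak, lin-54, lin-53, lin-9 and lin-35. It was present in 16.7% of the same windows at all 2742 conservative peaks and in 29.1% of coding promoters, taken as the 101 bp before each gene start. GCGGGA was present at efl-1 alone, against 4.92% of all conservative windows and 2.05% of promoters. The other 4 motifs were present at no member in that window. TTCGAA was in 6.09% of all conservative windows and 6.15% of promoters, the E2F core GCGCGA in 6.64% and 1.35%, the repeat GAGAGA in 13.9% and 8.86%, and the TATA-like word TATAAA in 5.73% and 19.4%. These are matches of letters only and were not tested.

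A search of all 9-base words, made after the sequences had been seen, found a single word within 50 bp of the strongest summit of 3 members. GCGCTCCAC began 32 bp before the summit of lin-9 and 18 bp before that of efl-1, and its reverse complement GTGGAGCGC began 32 bp past the summit of lin-54. The word was in 24 of the 2742 conservative windows (0.875%), whose median signal was 97.1, and in 30 coding promoters (0.15%). Of the 100 strongest conservative peaks, 4 held it, among them those of lin-54 and lin-9. The 24 windows and their median likewise include the 3 members. Because the word was picked from the members' windows, its presence in them carries no test. The counts and the median that include them do not link the word to strong peaks.

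The irreproducible discovery rate (IDR) is low where a peak ranks consistently high in the lists compared. An IDR given below for a single replicate comes from that replicate's own list and does not compare the 2 biological replicates. Of the 8 genes, 6 had at least 1 summit in the conservative list, the series-wide list kept at an IDR of 0.01. This compares with 12.4% of all coding genes, and with 12.2% of the 16513 coding genes whose length lay between that of the shortest and the longest member. Since the members were chosen with these peaks known, nothing is read from that difference. The other series-wide thresholded list placed a summit at 5 members (12.5% of all coding genes). The list of replicate 1 alone placed one at lin-54, lin-53, lin-9 and lin-52 (7.3% of coding genes), and that of replicate 2 at lin-54, lin-53, lin-9 and efl-1 (6.55%). With a summit required within 500 bp of an annotated coding start, 5 members were called (6.5% of coding genes), and lin-35 was the one lost. The strongest peak overlapped a thresholded peak of each replicate at 3 members, lin-54, lin-53 and lin-9 (4.34% of coding genes, or 34.9% of the coding genes with a conservative peak).

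The 6 genes held 9 conservative peaks, since lin-53, lin-9 and lin-52 had 2 each. The authors' peak signal, in arbitrary units for both replicates together, is used below. The strongest signals of the 6 genes had a median of 202, against 80.1 over the strongest peaks of all 2482 coding genes that had one. The members were chosen with these values known, so nothing is read from that difference. The strongest summits of 4 genes lay upstream of the start, by 156 to 362 bp. The peaks divided by width, with 4 of the 9 narrower than 320 bp and the other 5 exactly 320 bp wide, the commonest width in the list. The 4 narrow ones were the strongest peaks of lin-54, lin-53, lin-9 and lin-52. Over the whole conservative list 12.1% of peaks were narrower than 320 bp, and 88 of the 100 strongest were.

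**Figure D1:**
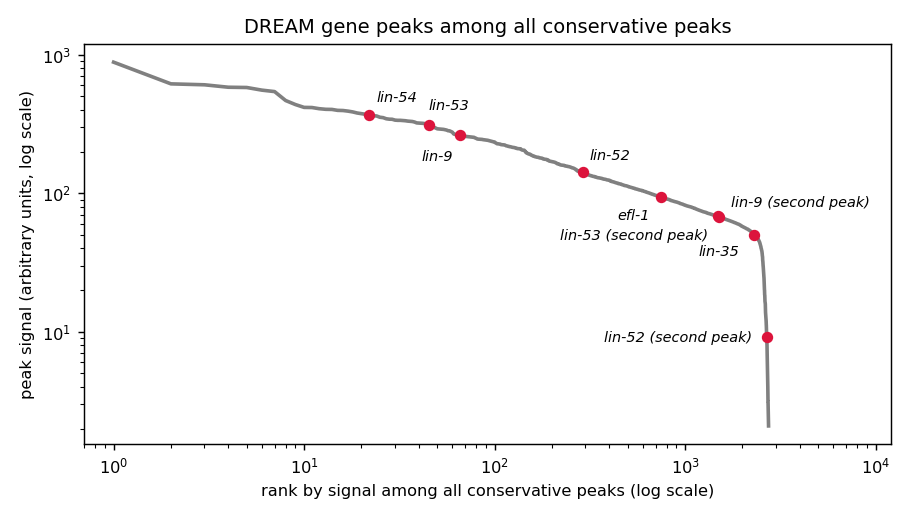
Signal of all 2742 conservative peaks (grey line, log scale) against their rank by signal (log scale), with the 9 peaks at DREAM genes as red points. The peaks of lin-54, lin-53 and lin-9 are at ranks 22, 45 and 66, while the second peak of lin-52 is at rank 2679.

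Of the 5 MuvB core genes, lin-54, lin-53, lin-9 and lin-52 carried the strongest peaks of the set, and lin-37 had none in the conservative list. lin-54, which encodes the CHR-binding subunit, had 1 conservative peak at IV:13240583-13240787 (205 bp) with a signal of 368, rank 22 of the list. Its signal was 193 in replicate 1 and 171 in replicate 2 (mean 182 ± 15.5, SD, n = 2), at ranks 28 of 1393 and 13 of 1276. The summit lay in intergenic sequence 362 bp before the start of lin-54 and 31 bp before that of rpl-12, the gene of a large ribosomal subunit protein on the other strand. The starts of the pair were 393 bp apart, so the summit lay in the promoter window of both, and their shares of the signal cannot be told apart. The 6 other ranked regions of lin-54 had signals of 6.70 to 31.3, all far under the promoter value.

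lin-53 encodes a WD-repeat histone-binding protein that also serves in other chromatin complexes. Its strongest peak, at I:9619892-9620090 (199 bp), had a signal of 312, rank 45. It gave 174 in replicate 1 and 130.2 in replicate 2 (mean 152 ± 30.9, SD, n = 2). This summit too lay in a shared promoter, 240 bp before lin-53 and 227 bp before nra-2, which is annotated as encoding nicalin and is read in the opposite direction. The second conservative peak, at I:9617864-9618183, had a signal of 67.5, with 37.7 in replicate 1 and 36.4 in replicate 2, neither of them thresholded. Its summit was past the end of lin-53, in coding sequence 83 bp past the start of rba-1. rba-1 encodes a histone-binding protein of the same family and begins 88 bp past the end of lin-53 on the same strand.

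lin-9 encodes a core subunit. Its promoter peak, at III:8904201-8904365 (165 bp), had a signal of 262, rank 66, and its summit lay 156 bp before the start. Replicate 1 gave 108 and replicate 2 gave 138 (mean 123 ± 21.5, SD, n = 2), the reverse order of the values at lin-54 and lin-53. No other gene lay within 500 bp of this summit, and the nearest coding gene upstream, unc-32, was 1483 bp away. A second conservative peak at III:8901100-8901419 had a signal of 67.9 and its summit in an intron, 2871 bp past the start. It gave 39.5 in replicate 1 and 34.0 in replicate 2, was thresholded in neither, and was absent from the other series-wide thresholded list.

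lin-52 encodes a small core subunit that links the core to the pocket protein. Its main peak, at III:9824635-9824833 (199 bp), had a signal of 142, rank 290, with the summit in coding sequence 37 bp past the start. Replicate 1 gave a thresholded 91.0, with its summit 60 bp past the start. Replicate 2 gave 54.3 at an IDR of 0.0126, just outside the threshold, with its summit 77 bp before the start. Both regions overlapped the conservative peak, but their summits lay at different places. The mean over these regions was 72.6 ± 26.0 (SD, n = 2). The start of lin-52 lies 126 bp past the end of ZK632.9, an uncharacterised gene on the same strand whose window held the summit too. A second conservative peak, at III:9824759-9825078, overlapped the first by 75 bp and had a signal of only 9.22, rank 2679, although its IDR of 4.15e-05 was as low as the 4.17e-05 of the main peak. Replicate 1 had no region over it, and the region of replicate 2 over it was the same one that lay over the main peak. In the whole list 67 peaks had a signal under 10. The other series-wide list lacked this weak peak and held instead one of signal 30.3 at III:9823621-9823940, past the end of lin-52 in coding sequence of arl-5.

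lin-37, another core subunit gene, had no summit in any thresholded list. Its best ranked region, at III:7072236-7072555, had a signal of 60.4 and an IDR of 0.0163, with its summit in the first intron 156 bp past the start. Its strongest region gave 28.4 in replicate 1, where its IDR was 0.188, and 22.4 in replicate 2, where it was 0.272. The conservative peak of lin-35 had a lower signal, 50.1, so the regions that passed were not simply those of highest signal.

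**Figure D2:**
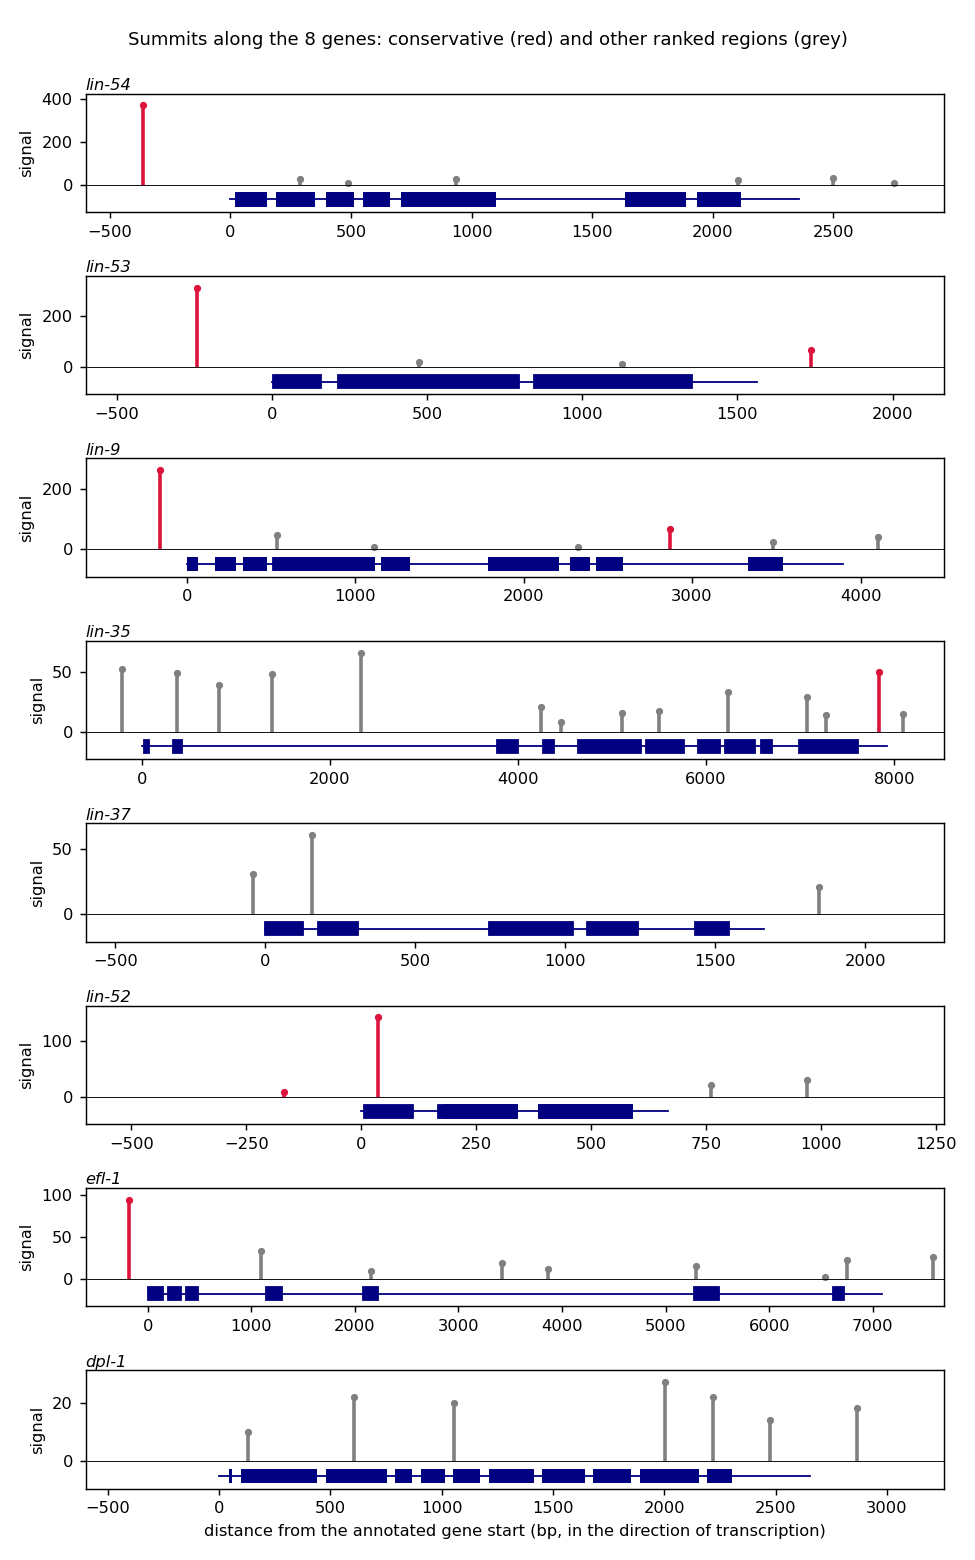
Summits of ranked regions along each of the 8 genes: position in bp from the gene start in the direction of transcription, and signal as the height of each stem, on a scale of its own for each gene. Red stems are conservative peaks, grey stems the other ranked regions, blue boxes coding sequence. Grey and red stems are drawn to the same scale within a gene, and the highest stem is red and near the start in lin-54, lin-53, lin-9, lin-52 and efl-1, and grey in lin-35, lin-37 and dpl-1.

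Of the E2F and DP pair, efl-1 had a promoter peak and dpl-1 had none. efl-1 encodes an E2F protein. Its single conservative peak, at V:16965700-16966019 (320 bp), had a signal of 94.5, rank 747, and its summit lay in intergenic sequence 185 bp before the start. Replicate 1 gave 52.1 at an IDR of 0.065, which was not thresholded, and replicate 2 gave 41.8 at an IDR of 0.00534 (mean 47.0 ± 7.24, SD, n = 2). The region thus missed the threshold in the replicate with the higher signal. Replicate 1 was higher at 72.2% of all conservative peaks with a region in both, so that order is not particular to efl-1. No other gene shared this peak. The 8 other ranked regions along efl-1, a gene of 7086 bp, had signals of 2.73 to 33.1.

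dpl-1 encodes the DP partner of the E2F protein. None of its 7 ranked regions approached the threshold: the lowest IDR was 0.153, at a signal of 27.1 and a position 2004 bp past the start. Its highest signal was 19.0 in replicate 1, 168 bp past the start, and 18.0 in replicate 2, 2829 bp past it. The latter summit lay past the end of dpl-1, in coding sequence of T23G7.2. The median signal of all 87350 ranked regions was 18.7, and the regions of dpl-1, at 9.98 to 27.1, lay around it.

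lin-35, the pocket protein gene, was the longest of the 8 at 7929 bp. Its only conservative peak, at I:5815383-5815702, had a signal of 50.1, rank 2306, and a summit in the 3′ UTR, 94 bp before the end of the gene. It gave 25.8 in replicate 1 and 32.5 in replicate 2 (mean 29.1 ± 4.70, SD, n = 2), thresholded in neither. The ends of lin-35 and of hmg-3, which encodes a FACT complex subunit on the other strand, overlap there by 29 bp, and hmg-3 holds the summit in its window. With an IDR score of 840, against the lowest score of 830 in the list, this was the member peak nearest to the threshold from inside. It was absent from the other series-wide list. Of the 14 ranked regions of lin-35, 2 had higher signals than that peak without being thresholded. These were an intronic one of 66.2 (IDR 0.0145), 2334 bp past the start, and a promoter one of 52.2 (IDR 0.033), 213 bp before it. The latter lay in the 417 bp between lin-35 and vps-51, which is read in the opposite direction, and so in the promoter window of both.

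Just outside the threshold stood 5 ranked regions with an IDR under 0.05. They were 3 regions of lin-35 with IDR values of 0.0145, 0.0163 and 0.033, the lin-37 region described above at 0.0163, and one past the end of lin-9 at 0.0155 with a signal of 39.7. All 8 genes had at least 3 ranked regions, as a ranked region was present at 73.2% of coding genes. The members had 55 in all, 1.11 per kb of window at efl-1 to 2.40 per kb at lin-52. All coding genes had a median of 1.03 per kb, with quartiles of 0 and 1.56.

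**Figure D3:**
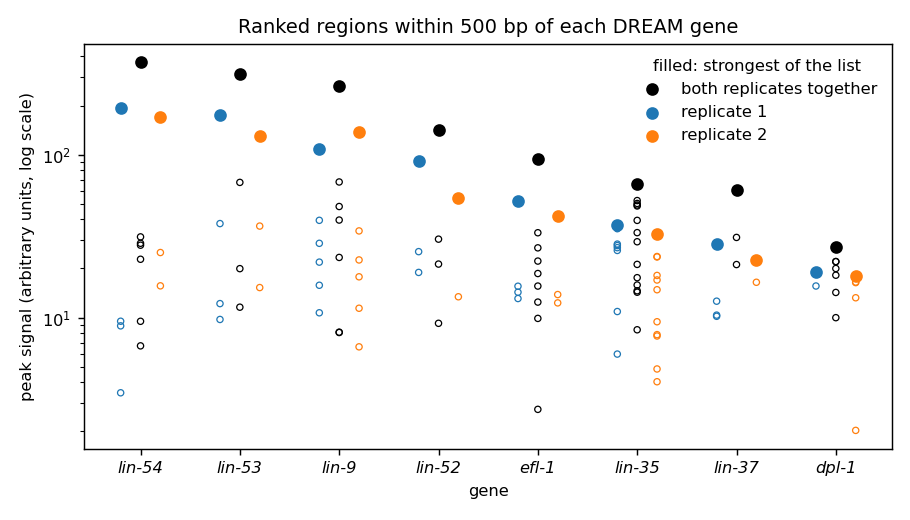
Signal (log scale) of every ranked region within 500 bp of each gene, for both replicates together (black), replicate 1 (blue) and replicate 2 (orange), with the strongest of each list filled. The strongest signals fall from 368 at lin-54 to 27.1 at dpl-1, and in replicate 1 from 193 to 19.0.

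The order of the genes by their strongest ranked region for both replicates together was lin-54, lin-53, lin-9, lin-52, efl-1, lin-35, lin-37 and dpl-1. The ranges of neighbours at the top overlapped across replicates. The replicate values of lin-53 (130.2 and 174) overlapped those of lin-54 (171 and 193) and those of lin-9 (108 and 138). Within each replicate lin-54 was higher than lin-53, whereas lin-53 was higher than lin-9 in replicate 1 and lower in replicate 2. The values of lin-9 and lin-52 did not overlap. Those of lin-52 (54.3 and 91.0) and efl-1 (41.8 and 52.1) did not overlap either, but came close. The nearest were 54.3 in replicate 2 and 52.1 in replicate 1. The 54.3 belongs to the lin-52 region whose summit lay before the start. For lin-37 the strongest regions of the replicates overlapped, and for lin-35 and dpl-1 they lay at different places. The values of these 3 genes lay between 18.0 and 36.9. With 2 replicates and members chosen for these values, no test was made.

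Replicate 1 gave the higher signal at 6 of the 8 conservative peaks that had a region in both replicates, and replicate 2 at lin-9's promoter and at lin-35. Over all 2677 conservative peaks with a region in both, 72.2% were higher in replicate 1, and the median log2 ratio of replicate 1 to replicate 2 was 0.28, with quartiles of -0.04 and 0.57. The log2 ratio was 0.75 at the main peak of lin-52, above the upper quartile, and -0.36 at the promoter of lin-9, below the lower one. At lin-54 it was 0.17 and at lin-53 0.42. The ratio at lin-52 compares regions that overlap only in part, with summits on either side of the gene start. How deeply the 2 libraries were sequenced is unknown, and the part of depth in these ratios was not tested.

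**Figure D4:**
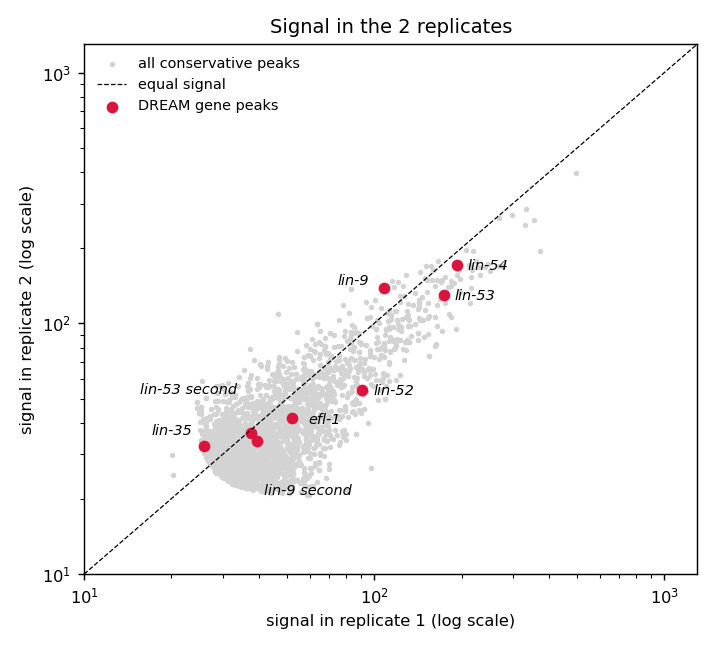
Signal in replicate 1 (horizontal axis) and in replicate 2 (vertical axis), both in arbitrary units on log scales, for conservative peaks with a region in both (grey) and the 8 such peaks at DREAM genes (red), with a dashed line of equal signal. Of the 2677 peaks, 1 lies under the axis minimum of 10 and is not shown. lin-9's promoter lies above the line and lin-52 well below it.

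The base composition of the 101 bp at the summits varied among the members. It was 57.4% GC at the promoters of lin-53 and lin-9, higher than 92.4% of conservative windows, 51.5% at efl-1 and 45.5% at lin-54. It was 38.6% at lin-52 and 27.7% at the lin-35 gene end. All conservative windows had a median of 44.6% with quartiles of 38.6% and 51.5%.

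For each member thresholded in both replicates, the coding genes with the most similar signals were found by the distance over 3 log2 signals, one joint value and one per replicate. For lin-54 these were zip-11 (distance 0.04), with a signal of 361, and rpl-7A and set-21 (0.10), which share one peak of signal 351. For lin-53 they were nlp-40 and rcor-1 (0.11), which share a peak of 322, and R12E2.11 (0.12), with 319.5. For lin-9 they were eef-2 and clsp-1 (0.12), which share a peak of 258, and cap-2 (0.18), with 260.2. Each search covered 865 or 866 genes over 2 replicates, and the likeness is one of signal only.

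Of 44 other genes in 6 lists of related factors, 9 (20.5%) had a conservative summit by the same rule, beside the 12.4% of all coding genes. Among the 9 was rba-1, counted through the peak it shares with lin-53. A summit within 500 bp of a start was present at 3 of the 44, near the 6.5% of all coding genes. The lists were drawn up with earlier results known, and no share matched for gene length was made. Nothing is read from these shares. Of the 11 other synMuv B genes, 3 had a peak, and all 3 summits lay more than 500 bp from a start. They were tam-1 (signal 56.4), which encodes a RING finger protein, mep-1 (50.9), which encodes a zinc finger protein that acts with the NuRD complex, and met-2 (49.98), a histone methyltransferase gene. The met-2 summit was intergenic and lay in the window of R05D3.12 too. None of the 4 synMuv A genes and neither of the other E2F genes, efl-2 and efl-3, had one.

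In a further list of 6 chromatin factor genes, 3 had a peak. The strongest was at mrg-1, which encodes a chromodomain protein. It had a signal of 143, with 99.0 in replicate 1 and 56.2 in replicate 2, both thresholded, and a summit 246 bp before the start. The window of spcs-2 held this summit too. zfp-1 had 93.9 and isw-1, a chromatin remodelling ATPase gene, 59.2, both in introns. The isw-1 summit lay in the window of rbf-1 too. Among the 11 partners of LIN-53 in other complexes, rba-1 had the 67.5 peak it shares with lin-53, and mes-2, which encodes the methyltransferase of the worm Polycomb complex, had 49.4, 163 bp before its start. The window of sdz-26 held that mes-2 summit too. Of 12 genes of G1/S control, lin-23, which encodes an F-box protein, alone had a peak, with a signal of 41.5. Its summit was intergenic, 3537 bp past the start, and replicate 1 had no region over it. Of these 9 genes mrg-1 was the only one whose strongest peak overlapped a thresholded peak of each replicate.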

How the data were processed

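Peaks of 2 biological replicates of whole young adults were read from 8 deposited lists on ce11, the assembly that Ensembl calls WBcel235. The deposited signal is a value per peak from the authors' peak calling. Its scale, the caller and the aligner were not given in the sources used here, and a control that the labels name as possible was not analysed. The deposited score is the authors' IDR on an integer scale up to 1000, where 830 stands for 0.0100, and the authors' ranked lists also hold the IDR as −log10 values, cut off at 5. Per the deposited text descriptions, every list was made from filtered and control alignments, the thresholded ones with another input besides. Without read counts the depth is unknown, and no counting interval could be set.

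Summits were placed on Ensembl release 115 genes with Python 3.11.15, numpy 2.4.6 and pandas 2.3.3. The signal of a replicate is that of its region, thresholded or ranked, with the highest signal among those that overlap the conservative peak by at least 1 bp. Distances are from the annotated gene start. The window count was checked on planted summits. The members, lists and motifs were chosen with earlier results of these data known, and the 9-base word after seeing the sequences. Named genes are the members, genes sharing their peaks, and genes of the lists of related factors with a conservative peak. The 3 genes nearest in signal to each member thresholded in both replicates are named too. Other genes named at a summit or beside a member were added after their values were seen. No test was made, since the peaks chose the members and there is 1 group. Alternatives were the other list, each replicate alone, the upper 50% of peaks, windows of 250 and 1000 bp, starts only, overlap in place of summits, the nearest start only, 50% cover, ranked replicate lists and wider motif windows.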

Additional observations from a re-analysis of the deposited data

How the results depend on the processing

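The count of 6 members with a conservative peak was 5 in the other thresholded list, in the upper 50% of peaks, with 250 bp and with starts only, and 6 with 1000 bp and with overlap in place of summits. Without one replicate it was 4 in either case. Given only to the coding gene with the nearest start, summits fell to 3 members, lin-9, lin-52 and efl-1, because the summits of lin-54 and lin-53 are nearer to rpl-12 and nra-2 and that of lin-35 to another start. The 250 bp window held no summit for lin-54.

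Signals were equal in each list of both replicates and window that held the peak. In the replicates' own lists, on the scale of a single library, they ranged from 171 to 193 at lin-54, from 130.2 to 174 at lin-53 and from 108 to 138 at lin-9, and were 91.0 at lin-52 (replicate 1 alone) and 41.8 at efl-1 (replicate 2 alone). Of the 3 members whose strongest peak overlapped thresholded peaks of both replicates, 2 did so with 50% cover, lin-9 being lost, and 6 did with ranked replicate lists.

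Wider motif windows hold more matches at all peaks, so each share of all conservative windows is given beside the members. With 100 bp to each side of the summit GCGCGA was found at 2 members (8.97%), lin-54 and lin-9, and GAGAGA at 2 (24.1%). With 150 bp each was again at 2 (10.7% and 30.1%), TTCGAA was at 1 (19.1%), GCGGGA at 2 (10.1%) and TATAAA at 1 (25.4%). TTTGAA was at 5 with 100 bp (34.3%) and with 150 bp (49.7%). GCGCTCCAC stayed at 3 with 100 bp, a window added after seeing the data. No paired analysis was possible because there is 1 group. Unknown depth limits what a region under the threshold can show: at dpl-1 and lin-37 binding was not called, which does not show that it is absent.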
